A study of Rattus norvegicus with 10 samples.

Results

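Gene expression in the prefrontal cortex was compared between 3 rats with a plus maze score above 10 (rats 1, 4 and 5) and 4 rats with a score below 6 (rats 2, 7, 8 and 10). These 7 were the rats whose labels give a plus maze score, of 10 in the series, and the groups were formed from that score, which is independent of the arrays. Rats 3, 6 and 9 have no plus maze score and entered neither group. All were male, untreated, singly housed Lewis rats, an inbred strain, drawn from a cohort of 40 that went through behavioural testing. Each gave 1 array from frontal areas Fr1 and Fr2 ahead of bregma +4.0 mm, with the olfactory bulb removed, taken 6 days after the final test. The question in the series title is whether mRNA levels of the brain go with behaviour among rats of an inbred strain. The labels state neither the unit of the plus maze score nor which measure it is, so a high score is not read here as low or high anxiety. The series design text names 4 behavioural tests, and the plus maze is not among them.

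The elevated plus maze has open and enclosed arms and is a common test of anxiety-like behaviour in rodents, since rats tend to avoid the open arms. The prefrontal cortex connects with the amygdala and takes part in the control of such avoidance. GABA-A receptors, the target of benzodiazepines, the serotonin and noradrenaline systems, corticosteroid signalling and neuropeptides such as corticotropin-releasing hormone, neuropeptide Y and cholecystokinin all alter behaviour in this test.

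The tissue label was set against markers, with a gene called measured where its mean was at or above the median level of all probe sets, a log2 value of 3.99. All 10 neuron markers on the array were measured, with 6 of 6 markers of superficial and 8 of 10 of deep cortical layers. Markers of striatal projection neurons were measured too, in 12 of 18, and stood high in rats 4 and 7, where the D1 receptor gene Drd1 was at 9.06 and 9.60 against 5.79 to 6.28 in rats 1, 2, 3, 6 and 9. Of 7 choroid plexus markers on the array, 0 reached it. The arrays correlated at 0.9955 to 0.9988 across probe sets, which are not independent replicates. None of 22 array and marker measures, among them array medians, spike-in levels and the 3′ to 5′ balance of control transcripts, separated the groups, with exact two-sided permutation p from 0.343 to 1. With 3 and 4 rats there are 35 arrangements, and the smallest two-sided exact p is 0.0571. Precision is limited by how few arrays there are. In bulk tissue, fewer cells of a type and less RNA per cell cannot be told apart.

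The groups were far apart in score but uneven inside. The rats above 10 scored 12.1 (rat 1), 20.2 (rat 4) and 60.3 (rat 5), a mean of 30.9 ± 25.8 (SD, n = 3). The rats below 6 scored 0 (rats 2 and 7), 3.30 (rat 10) and 5.01 (rat 8), a mean of 2.08 ± 2.50 (SD, n = 4). Rat 5 alone set much of the upper mean, which was 16.2 without it.

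The other behaviours did not differ between the groups beyond the spread among rats. Locomotion stood furthest apart, at 15423 ± 3656 (SD, n = 3) in the rats above 10 and 11832 ± 2318 (SD, n = 4) in the rats below 6, with an exact two-sided permutation p of 0.171 and a value of 0.686 after Benjamini-Hochberg adjustment over the 4 behaviours. Rats 1 and 4 had the 2 highest locomotion scores of the 7, 17045 and 17987, while rat 5, at 11237, lay inside the range of the other group. The acoustic startle score was 556 ± 190 against 671 ± 244 (exact permutation p = 0.571). Sugar feeding was 1.15 ± 1.02 against 1.36 ± 0.705 (exact permutation p = 0.743). Prepulse inhibition, the damping of a startle by a weaker sound before it, was 29.6 ± 19.8 against 25.7 ± 12.0 (exact permutation p = 0.857). The adjusted p of these last 3 was 0.857. The groups overlapped in all 4.

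**Figure D1:**
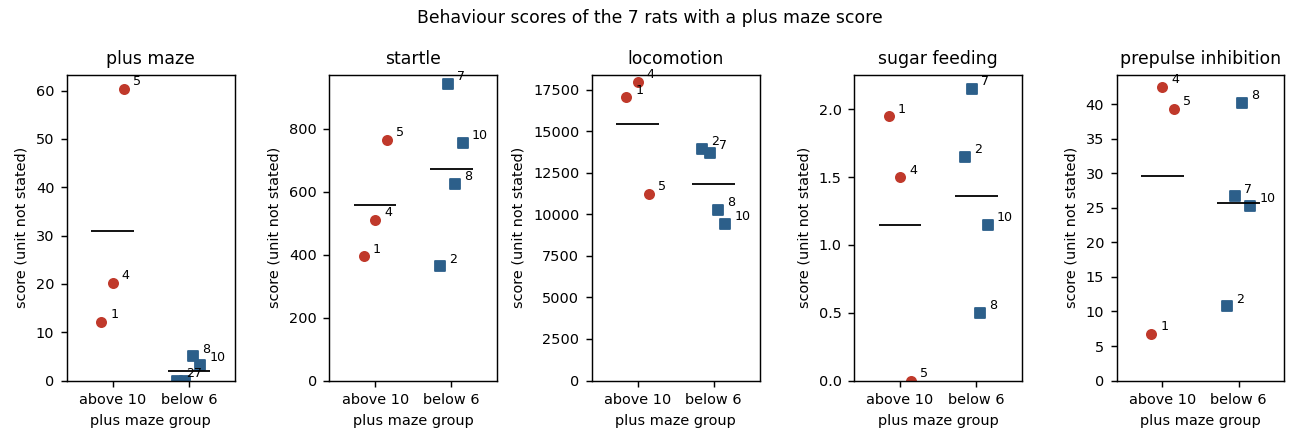
Scores of the 7 rats for the plus maze and the 4 other behaviours (vertical axes, units not stated), by plus maze group; points are rats with their numbers and bars are means. Rat 5 stands alone at 60.3 in the plus maze, and the groups overlap in the other 4 panels.

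No gene passed the adjusted threshold. Of 21262 probe sets tested with limma, 0 (0%) had an adjusted p under 0.05, and the smallest adjusted p was 0.917. An unadjusted p under 0.05 was found for 332 probe sets (1.56%), of which 155 had the higher mean in the rats above 10 and 177 the lower. Chance alone gives such a p in a share of about 0.05 on average, which is more. Non-overlap has an average chance share of 0.0571, the smallest exact p given above. The groups did not overlap in 364 probe sets (1.71%), with the rats above 10 on top in 202 and below in 162. That split was 138 and 158 among probe sets at or above the level and 64 and 4 below it, and it turned to 147 and 323 with each array centred on its median and to 269 and 432 after quantile normalization. Among the 11849 probe sets at or above the level, 298 (2.51%) had an unadjusted p under 0.05 and 296 (2.5%) did not overlap. The 298 come from the fit to all tested probe sets, and a fit to these 11849 alone gave 182. All differences below are log2 values of the rats above 10 minus those of the rats below 6, given ± SE.

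Differences were small. Among probe sets at or above the level the median was -0.01, with 5471 higher and 6378 lower. A fold of 1.2 or more was reached by 432 of them, of 1.5 or more by 12, and of 2 or more by 1. That 1 was Eml2, a microtubule-associated protein, which lies outside the rule for named genes and is named because it was the single case. Its log2 values were 4.24, 6.58 and 4.14 in rats 1, 4 and 5 and 7.30, 5.12, 6.64 and 6.89 in rats 2, 7, 8 and 10. The groups overlapped, since rat 4 was above rat 7, and the difference was -1.50 ± 0.77 with an unadjusted p of 0.097. The median 95% interval of a difference, before adjustment, reached 0.22 to either side. Smaller differences in a typical probe set could therefore not be told from 0 even unadjusted. Larger ones also stayed short of the adjusted threshold, among them -0.50 ± 0.06 for C8h11orf87.

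The genes named for higher values in the rats above 10 are given by role, an order that says nothing of a shared theme. Leo1, a subunit of the PAF1 complex that travels with RNA polymerase II, had log2 values of 8.37, 8.78 and 8.52 in rats 1, 4 and 5. In rats 2, 7, 8 and 10 it was at 8.06, 8.03, 7.99 and 7.89. Every rat of the upper group was above every rat of the lower one, and the difference was 0.56 ± 0.10 (fold 1.47, 95% interval 0.32 to 0.80, unadjusted p = 0.00107, limma adjusted p = 0.917). The 3 rats without a score had 8.07, 8.16 and 7.72, so all lay below the rats above 10. Leo1 had a single probe set at this level, so no other probe set could be set beside it.

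Ctr9, the scaffold subunit of the same complex, had 6.43, 6.35 and 6.24 in the rats above 10 and 6.16, 6.09, 6.19 and 6.04 in the others. This probe set differed by 0.22 ± 0.06 without overlap, but a brighter probe set of Ctr9 differed by -0.01 ± 0.03. Stag1, a cohesin subunit, had 6.08, 5.91 and 5.88 against 5.67, 5.70, 5.69 and 5.67. The 4 rats below 6 lay within a narrow band here, and the difference was 0.27 ± 0.05, beside 0.10 ± 0.06 in its second probe set. Rat 3, with no score, was at 5.24, below all others. Tut7, which adds uridines to the ends of RNAs, had 7.89, 7.92 and 7.90 against 7.79, 7.72, 7.69 and 7.76. Its difference was 0.17 ± 0.03, and its second probe set gave 0.19 ± 0.16. Rbm17, a splicing factor, differed by 0.28 ± 0.07 in 1 probe set and by 0.02 ± 0.06 in the other.

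Pank3, a pantothenate kinase that starts coenzyme A synthesis, had 8.50, 8.47 and 8.38 in the rats above 10 and 8.26, 8.20, 8.18 and 8.25 in the others. The difference was 0.23 ± 0.04 (unadjusted p = 0.00101), but its 2 other probe sets gave -0.03 ± 0.08 and 0.01 ± 0.12. Slc4a7, a sodium bicarbonate cotransporter, differed by 0.43 ± 0.09 near the level, and a second probe set by -0.16 ± 0.20, the opposite sign. Unc5c, a receptor for the axon guidance protein netrin, differed by 0.19 ± 0.04. Smap2, which acts on Arf GTPases in vesicle traffic, differed by 0.23 ± 0.06, and by 0.03 ± 0.08 and 0.12 ± 0.14 in its 2 others. Wee1 is a kinase that restrains entry into mitosis, Ipo8 a nuclear import receptor and C1r a protease of the complement system. They had the smallest differences, in that order 0.12 ± 0.03, 0.12 ± 0.03 and 0.10 ± 0.03. Second probe sets of Wee1 and Ipo8 gave 0.02 ± 0.03 and 0.01 ± 0.09. C1r shows how narrow such a gap can be: rats 3 and 9, with no score, had 7.27 and 7.70, far above the 7.08 to 7.13 of the rats above 10.

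Klhl5, of the kelch-like family, had the largest difference among the genes named for a wide gap. Its values were 6.81, 5.94 and 6.11 in the rats above 10 and 5.65, 5.68, 5.45 and 4.55 in the others. Rat 1 was high and rat 10 low, and the difference of 0.95 ± 0.34 had a wide 95% interval of 0.13 to 1.77. A second probe set of Klhl5 gave 0.02 ± 0.10.

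Among genes with lower values in the rats above 10, the smallest p of all tested genes with 1 symbol at this level belonged to C8h11orf87. Its log2 values were 8.67, 8.78 and 8.83 in rats 1, 4 and 5 and 9.16, 9.28, 9.36 and 9.22 in rats 2, 7, 8 and 10. The groups were 0.33 apart at their nearest rats, and the difference was -0.50 ± 0.06 (95% interval -0.64 to -0.35, unadjusted p = 0.000128, limma adjusted p = 0.917). Rats 3 and 6, with no score, lay in the gap at 8.91 and 8.89, and rat 9 was at 9.18, among the rats below 6. The second probe set of this gene gave -0.03 ± 0.10.

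Cntnap2, the next by p, which encodes Caspr2, a membrane protein that clusters potassium channels along myelinated axons, had 9.56, 9.59 and 9.58 in the rats above 10 and 9.90, 9.76, 9.80 and 9.81 in the others. The 3 rats above 10 lay close together, and the difference was -0.24 ± 0.04 (unadjusted p = 0.000468). Its 2 other probe sets had the same sign but were small beside their errors, at -0.10 ± 0.14 and -0.03 ± 0.19. Cdh11, a cadherin, differed by -0.21 ± 0.05 in the named probe set, and by -0.03 ± 0.12 and 0.19 ± 0.16 in the 2 others. Resp18, a protein of the neuroendocrine secretory pathway, had 9.97, 9.99 and 9.90 against 10.09, 10.35, 10.23 and 10.31. Its difference was -0.29 ± 0.07. Of the 3 rats without a score, rat 3 lay in the gap at 10.06, and rats 6 and 9, at 9.97 and 9.90, lay among the rats above 10.

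Erlec1, a lectin of the endoplasmic reticulum that takes part in the disposal of misfolded glycoproteins, had 9.91, 9.91 and 9.88 against 10.03, 10.07, 10.03 and 10.04. The difference was -0.14 ± 0.02, and a second probe set had the same size with a larger error, -0.14 ± 0.15. Smad2, which carries signals of the TGF-beta family to the nucleus, differed by -0.16 ± 0.03. Gnl3, the nucleolar GTPase nucleostemin, had 8.68, 8.69 and 8.66 against 8.86, 8.82, 8.94 and 8.80, a difference of -0.18 ± 0.04. Utp18, a factor of small ribosomal subunit assembly, had 8.38, 8.53 and 8.29 against 8.71, 8.75, 8.61 and 8.76, a difference of -0.31 ± 0.07. Neither of these had a second probe set at the level, and the groups did not overlap in either.

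The remaining lower genes have varied roles. Ring1, a ubiquitin ligase of Polycomb repressive complex 1, differed by -0.50 ± 0.14 in the named probe set and by -0.03 ± 0.09 in a brighter one, and rat 8 was high in the former at 6.73. Simc1, a SUMO-binding protein, differed by -0.30 ± 0.10, with rat 1 low at 4.00. Dcaf10, a substrate receptor of the CUL4 ubiquitin ligase, differed by -0.25 ± 0.06. Smim18, a small membrane protein, differed by -0.24 ± 0.06, and Kxd1, of the BORC complex that positions lysosomes, by -0.22 ± 0.06. Mesp1, a transcription factor of early mesoderm, differed by -0.18 ± 0.04 at log2 values of 3.97 to 4.25, next to the level, so little weight rests on it.

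Other probe sets of the same genes read the same RNA samples, so they bear on the probe sets and not on a link with the score. Of the 27 genes of smallest p or widest gap, 15 had 19 further probe sets at or above the level. The sign was the same in 15 of these and opposite in 4, and 0 had an unadjusted p under 0.05. Probe sets of a gene can read different transcript ends, which was not tested here. Of the unscored rats, rat 9 was nearer the mean of the rats below 6 in 22 of the 27 genes, and rats 3 and 6 in 15 each.

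**Figure D2:**
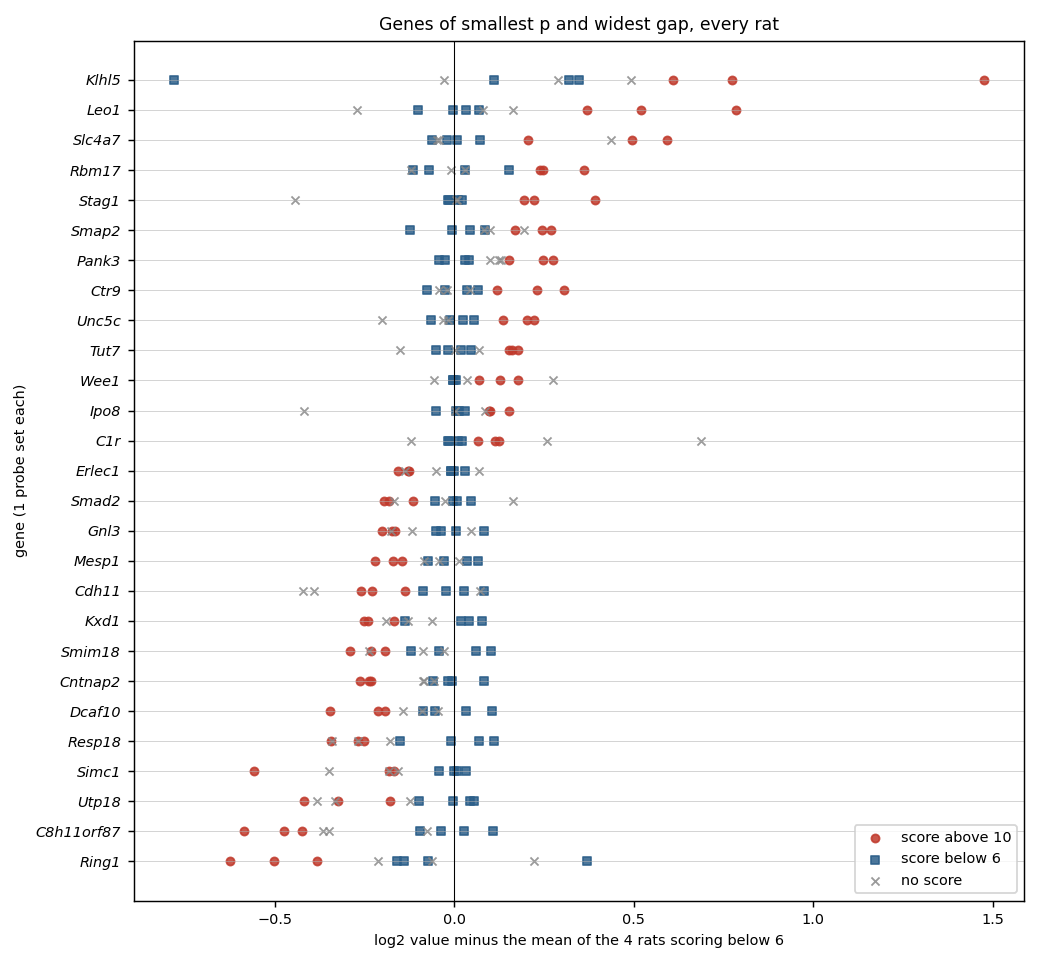
Log2 value of each rat minus the mean of the 4 rats below 6 (horizontal axis) for 27 genes of smallest p or widest gap (vertical axis, 1 probe set each). Red points are rats above 10, blue squares rats below 6 and grey crosses the 3 unscored rats. The red and blue points do not overlap, as in Leo1 at 0.56 ± 0.10. The genes were chosen for a small p or a wide gap, so this is no separate result.

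Genes of the systems that act in the plus maze were read from 16 functional lists, beside 14 marker lists of cell types. Across all lists, 250 different genes were measured, 116 with a higher and 134 with a lower mean in the rats above 10. Adjusted calls numbered 0, and 2 genes (0.8%) had an unadjusted p under 0.05, against 2.51% of all probe sets at this level. Groups that did not overlap were found in 3 of these genes (1.2%), against 2.5%. The lists therefore held no more such genes than the array as a whole.

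GABA signalling showed no common direction. Of 8 measured GABA-A receptor subunits, 3 were higher and 5 lower, with a median of -0.03. Gabra2, the alpha-2 subunit linked with the anxiolytic action of benzodiazepines, had 10.99, 10.17 and 10.25 in the rats above 10 and 10.82, 10.22, 10.67 and 10.38 in the others, a difference of -0.05 ± 0.24. Rats 1 and 2 were the highest in their groups, and the groups overlapped fully. Gabra5 differed by -0.05 ± 0.08, Gabra4 by 0.13 ± 0.19 and Gabrb2 by -0.08 ± 0.11. A second Gabrb2 probe set gave 0.19, the opposite sign. Of 8 genes of GABA synthesis, transport and GABA-B receptors, 3 were higher and 5 lower, again with a median of -0.03. The 2 enzymes that make GABA had opposite signs, -0.12 ± 0.12 for Gad1 and 0.07 ± 0.14 for Gad2, and a second Gad1 probe set gave 0.38. Gabbr1, a GABA-B receptor subunit, differed by -0.12 ± 0.07, and by 0.01, -0.10 and -0.06 in its 3 other probe sets at the level.

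Stress hormone genes were also split. Of 6 measured stress peptides and receptors, 3 were higher and 3 lower, with a median of -0.04. Crh, corticotropin-releasing hormone, had 4.02, 4.25 and 4.13 in the rats above 10 and 4.22, 4.30, 4.32 and 4.17 in the others, a difference of -0.12 ± 0.06 close to the level. Crhbp, its binding protein, had 5.91, 6.55 and 6.20 against 5.84, 5.78, 6.17 and 6.17, a difference of 0.23 ± 0.18. The groups overlapped in both genes. Of 14 corticosteroid receptors and glucocorticoid-induced genes, 6 were higher and 8 lower, with a median of -0.04. The glucocorticoid receptor Nr3c1 differed by -0.11 ± 0.08 and the mineralocorticoid receptor Nr3c2 by -0.09 ± 0.05. Among genes that glucocorticoids induce, Fkbp5 differed by 0.11 ± 0.14, Sgk1 by 0.00 ± 0.05, Klf9 by -0.12 ± 0.06 and Sult1a1 by 0.15 ± 0.15. A second Klf9 probe set gave 0.20, the opposite sign.

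Of 5 measured serotonin genes, 4 were higher and 1 lower, with a median of 0.03. Htr2a, the 5-HT2A receptor, had 8.04, 8.15 and 8.27 in the rats above 10 and 8.47, 7.09, 7.87 and 8.06 in the others. Rat 7 was low, and the difference of 0.28 ± 0.31 was 0.02 without rats 4 and 7. Htr2c differed by -0.16 ± 0.37 and was highest in rats 7 and 4, at 10.18 and 9.87. Its difference was 0.05 without rat 7 and 0.03 without rat 5. Htr1a, the 5-HT1A receptor, was below the level in all 10 rats, at 2.79 to 3.79, so no difference is read from it. Maoa, the monoamine oxidase that breaks down serotonin and noradrenaline, differed by 0.03 ± 0.08. Of 10 noradrenaline and acetylcholine receptors, 5 were higher and 5 lower, with a median of -0.04. The members of smallest p there were Chrm4, a muscarinic receptor, at -0.16 ± 0.13 and Chrna5, a nicotinic subunit, at 0.08 ± 0.11.

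Of 16 neuropeptides and receptors, 4 were higher and 12 lower, with a median of -0.06, from -0.26 ± 0.58 for Penk, preproenkephalin, to 0.15 ± 0.15 for Npy5r, a neuropeptide Y receptor. Npy, neuropeptide Y, had 9.57, 9.96 and 9.65 in the rats above 10 and 9.64, 9.82, 9.83 and 9.92 in the others, a difference of -0.07 ± 0.11. Cck, cholecystokinin, among the brightest genes of the table, differed by -0.01 ± 0.10, and its cortical receptor Cckbr by -0.04 ± 0.05. Sst, somatostatin, differed by -0.06 ± 0.08, and Tacr1, the receptor of substance P, by -0.13 ± 0.09. The oxytocin receptor Oxtr was below the level in all 10 rats, at 1.69 to 1.75. Of 6 endocannabinoid genes, 2 were higher and 4 lower, with a median of -0.01. The cannabinoid receptor Cnr1 differed by -0.01 ± 0.11 and Mgll, which degrades 2-arachidonoylglycerol, by 0.10 ± 0.09. A second Cnr1 probe set gave 0.24, and the 3 others of Mgll gave -0.01, 0.02 and -0.02.

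Of 19 measured candidate genes from studies of anxiety in rodents and people, 8 were higher and 11 lower, with a median of -0.01. Glo1, glyoxalase 1, had 11.34, 11.47 and 11.27 in the rats above 10 and 11.50, 11.36, 11.29 and 11.50 in the others, a difference of -0.05 ± 0.07 with overlapping groups. Rgs2, a regulator of G protein signalling, differed by 0.00 ± 0.09, Adora1, the adenosine A1 receptor, by 0.06 ± 0.05, and Bdnf, a neurotrophin, by 0.03 ± 0.16. Gsr, glutathione reductase, had an unadjusted p of 0.039 and groups 0.01 apart, but its probe set was below the level, at 2.62 to 3.13.

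Activity-induced genes varied more between rats than between groups. Of 17 measured, 6 were higher and 11 lower, with a median of -0.02. Fos had 8.13, 9.59 and 7.42 in the rats above 10 and 9.08, 8.91, 9.66 and 4.91 in the others, so rat 10 stood far below the rest and the difference was 0.24 ± 1.23. Arc had 8.82, 10.30 and 8.92 against 9.72, 9.66, 10.83 and 8.76, a difference of -0.40 ± 0.57. Egr1 differed by 0.22 ± 0.25 and Jun by -0.14 ± 0.13, with -0.16 and 0.08 in other Jun probe sets. Of 15 circadian clock genes, 10 were higher and 5 lower, with a median of 0.04. Bmal1, a core activator of the clock, had 8.28, 8.33 and 8.02 against 8.25, 7.70, 7.68 and 8.03, a difference of 0.30 ± 0.16, and rat 2 lay among the rats above 10. Bhlhe41, a repressor in the same loop, differed by -0.16 ± 0.15 and Per1 by 0.08 ± 0.34. The time of day at which each rat was killed is not in the labels.

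Glutamate and synaptic genes held the only list member of these systems with an unadjusted p under 0.05. Slc1a2, the main glutamate transporter of astrocytes, had 8.25, 8.21 and 8.18 in the rats above 10 and 8.02, 8.17, 8.01 and 8.13 in the others. The groups were 0.01 apart, the difference was 0.13 ± 0.05 (unadjusted p = 0.033), and its second probe set gave 0.08. Of 11 metabotropic receptors and glutamate transporters, 6 were higher and 5 lower, with a median of 0.00. Their mean centred log2 value was 0.02 to 0.03 in the rats above 10 and -0.06 to 0.00 in the rats below 6, without overlap. Such non-overlap has a chance share of 0.0571 per list, and 29 lists were measured. The list median was -0.01 with each array centred on its median. Of 14 ionotropic subunits, 10 were higher and 4 lower, with a median of 0.02, from Gria4 at -0.05 ± 0.03 to Gria1 at 0.19 ± 0.14 among those named. Of 18 synaptic vesicle genes, 11 were higher and 7 lower, with a median of 0.01, and of 4 neurotrophin genes, 3 were higher and 1 lower, with a median of 0.02.

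**Figure D3:**
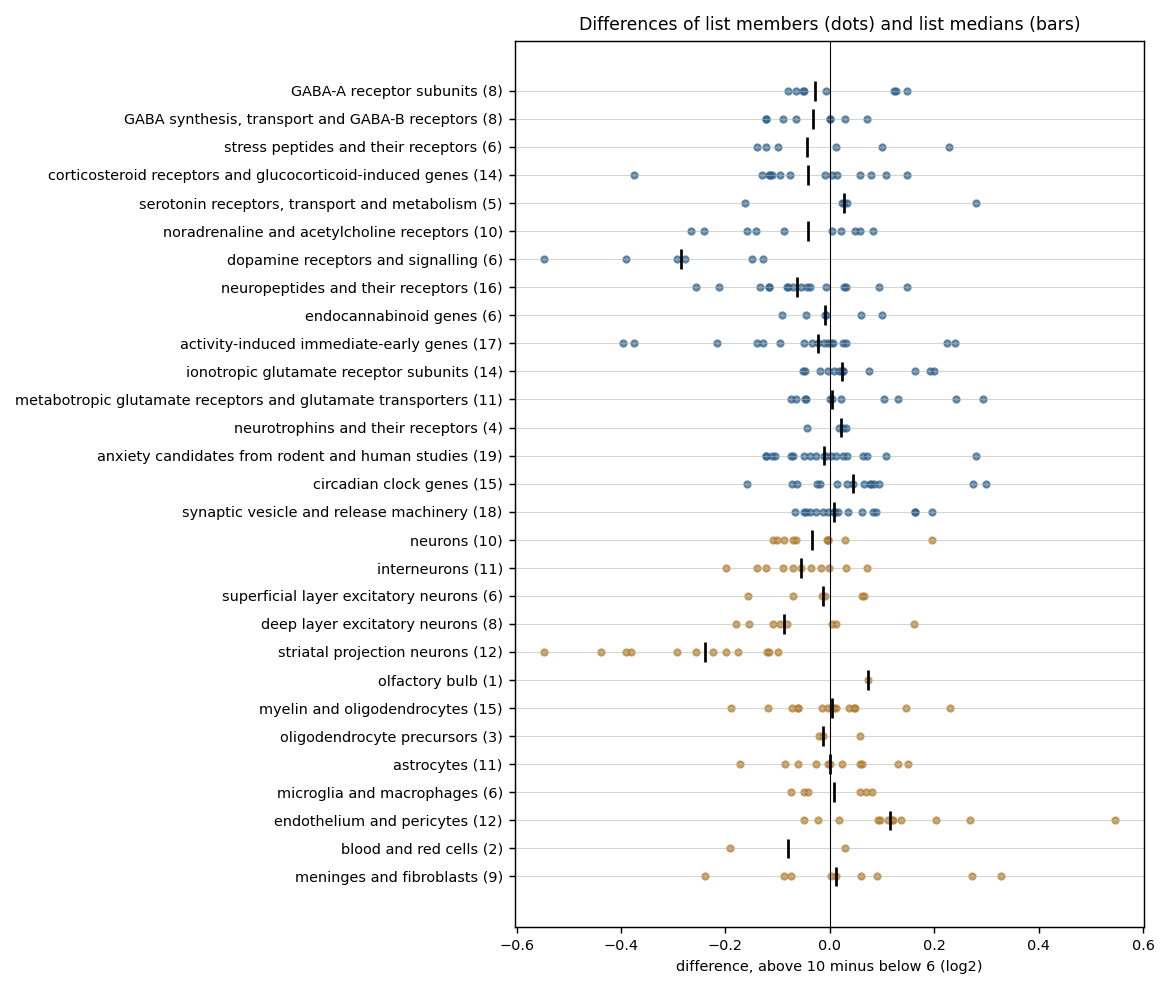
Difference of each measured list member (dots; blue for 16 functional lists, brown for marker lists) and list median (black bars), as log2 of the rats above 10 minus the rats below 6, with the number of members in brackets. Medians lie near 0 except for dopamine signalling (-0.29), striatal projection neurons (-0.24) and endothelium (0.12).

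Dopamine signalling and striatal markers had the lowest medians, and both turned on single rats. All 6 measured dopamine genes and all 12 striatal projection neuron markers had a lower mean in the rats above 10, with medians of -0.29 and -0.24, and 0 of them had an unadjusted p under 0.05. These lists share Drd1, Drd2 and other genes. Drd1, the D1 receptor, had 6.23, 9.06 and 7.25 in rats 1, 4 and 5 and 5.91, 9.60, 7.73 and 8.38 in rats 2, 7, 8 and 10. Rats 7 and 4, of opposite groups, were the 2 highest, the groups overlapped fully, and the difference was -0.39 ± 1.01. Drd2 had 4.10, 6.16 and 4.75 against 4.05, 7.57, 5.08 and 5.50, a difference of -0.55 ± 0.89. Penk differed by -0.26 ± 0.58 and Pdyn, prodynorphin, by -0.12 ± 0.47, with rats 4 and 7 again the highest in each. Leaving out rat 1 brought the striatal median to 0.02, leaving out rat 7 to 0.06, leaving out rat 4 to -0.66 and leaving out rat 5 to -0.16. The dopamine median became -0.01 when rat 1 was left out, 0.08 when rat 7 was and -0.61 when rat 4 was. Leaving out both rats 4 and 7 gave -0.40 for the striatal and -0.34 for the dopamine median.

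The score of striatal markers, their mean centred log2 value, was -0.48, 0.77 and -0.17 in rats 1, 4 and 5 and -0.52, 1.25, 0.07 and 0.43 in rats 2, 7, 8 and 10. The means were 0.04 ± 0.65 (SD, n = 3) and 0.31 ± 0.74 (SD, n = 4), with an exact permutation p of 0.686. Rats 3, 6 and 9 had -0.48, -0.39 and -0.48. This score spread over more than any other marker score of the 7 rats, and the share of striatal tissue in each piece was not measured. With the striatal score as a covariate, 0 probe sets were called and 439 had an unadjusted p under 0.05.

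Endothelial and pericyte markers had the highest median. Of 12 measured, 10 were higher and 2 lower in the rats above 10, with a median of 0.12. Cldn5, a tight junction protein of the blood-brain barrier, had 10.06, 10.08 and 9.81 in the rats above 10 and 9.83, 9.64, 9.62 and 9.78 in the others. Rat 5 lay just below rat 2, and the difference was 0.27 ± 0.09 (unadjusted p = 0.0192). The endothelial score was 0.19, 0.08 and -0.15 in rats 1, 4 and 5 and 0.04, -0.31, -0.08 and -0.04 in rats 2, 7, 8 and 10, so the groups overlapped (exact permutation p = 0.343). The list median was 0.16 without rat 5, 0.06 without rat 7 and 0.02 without rats 4 and 7, and -0.00 with the score as a number.

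The other cell types gave medians within 0.09 of 0. Interneuron markers were higher in 2 and lower in 9 of 11, with a median of -0.06, and Erbb4, a neuregulin receptor on interneurons, differed by -0.20 ± 0.09 with groups 0.003 apart. Pvalb, the calcium-binding protein of fast-spiking interneurons, differed by -0.00 ± 0.14, and Vip, of another interneuron class, by -0.14 ± 0.09. Deep layer markers were higher in 3 and lower in 5 of 8, with a median of -0.09, and superficial layer markers in 2 and 4 of 6, with a median of -0.01. In the deep layer list, Bcl11b, Foxp2 and Pcp4 were highest in rats 4 and 7, as Drd1 was, while Fezf2, Tle4, Tbr1, Etv1 and Crym were not. With the striatal score as a covariate the deep layer median was -0.01. Neuron markers were higher in 2 and lower in 8 of 10, with a median of -0.03. Myelin genes were higher in 8 and lower in 7 of 15, with a median of 0.00, and Aspa, an enzyme of oligodendrocytes that splits N-acetylaspartate, differed by 0.23 ± 0.11 with groups 0.001 apart. Astrocyte markers were higher in 5 and lower in 6 of 11, and Gfap differed by 0.00 at an SE of 0.08. Microglial markers were higher in 3 and lower in 3 of 6. Oligodendrocyte precursor markers were higher in 1 and lower in 2 of 3, red cell markers in 1 and 1 of 2 with a median of -0.08, and the olfactory bulb list held 1 measured gene, Cdhr1, at 0.07 ± 0.06.

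Meningeal and fibroblast markers were higher in 6 and lower in 3 of 9, with a median of 0.01, but the rats differed widely. Their score was lowest in rat 8 (-0.82) and rat 5 (-0.52) among the 7, 1 in each group, and highest in the unscored rats 9 (1.15) and 3 (0.82). Col1a2, a collagen of fibroblasts, had 8.37, 8.21 and 7.70 in the rats above 10 and 8.33, 7.88, 6.78 and 8.07 in the others, a difference of 0.33 ± 0.39.

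**Figure D4:**
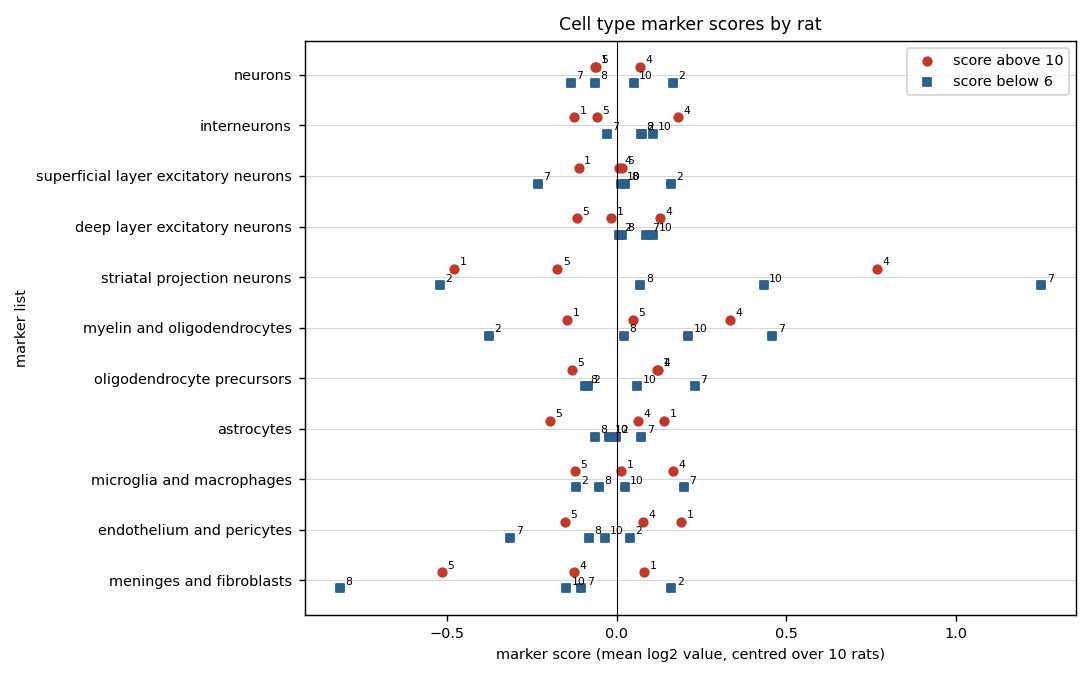
Marker score of each of the 7 rats (mean centred log2 value, horizontal axis) for 11 cell type lists (vertical axis), with rat numbers; red points are rats above 10 and blue squares rats below 6. The striatal score is widest, from -0.52 in rat 2 to 1.25 in rat 7, and the groups overlap in every list shown.

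Without rat 5, whose score is far above the rest, the balance of unadjusted results moved. Adjusted calls were again 0 (0%), and 391 probe sets (1.84%) had an unadjusted p under 0.05, with 278 higher and 113 lower, against 155 and 177 with all 7 rats. The split thus moved towards higher values in rats 1 and 4. Of these, 129 were shared with the 332 of the 7 rats, which is 38.9% of that list and 33.0% of the other, and all 129 had the same sign. The comparisons share 6 rats, so this overlap is no independent check. Groups that did not overlap numbered 1031 (4.85%), 725 with the rats above 10 on top. Here 2 rats rather than 3 had to stand apart, so the chance share is larger than the 0.0571 of 3 and 4 rats. The rise from 1.71% is therefore not read as clearer separation.

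The signs of the 27 leading genes could not turn without rat 5, since the genes were chosen for groups that do not overlap or for a stable sign, and 15 were larger in size. Leo1 was 0.58 instead of 0.56, C8h11orf87 -0.53 instead of -0.50, Cntnap2 -0.25 instead of -0.24 and Klhl5 1.04 instead of 0.95. The medians of 8 of 29 lists took the other sign. The immediate-early gene median was 0.08 instead of -0.02, that of meningeal markers 0.16 instead of 0.01 and that of astrocyte markers 0.12 instead of 0.00. Cldn5 was 0.35 instead of 0.27.

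With the plus maze score taken as a number over the 7 rats, 0 probe sets (0%) were called and 1487 (6.99%) had an unadjusted p under 0.05. Rat 5 was the highest or lowest of the 7 rats in 1480 of these (99.5%), compared with 5356 (25.2%) of all tested probe sets, so that fit mostly set rat 5 against the rest. Over the 6 other rats, the same fit gave 601 with an unadjusted p under 0.05 and 0 calls. Without rat 4 the count of the 2-group comparison was 742, with 229 higher and 513 lower, and without rat 2 it was 516. With locomotion as a covariate it was 1099, with 240 higher and 859 lower, and 0 were called.

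**Figure D5:**
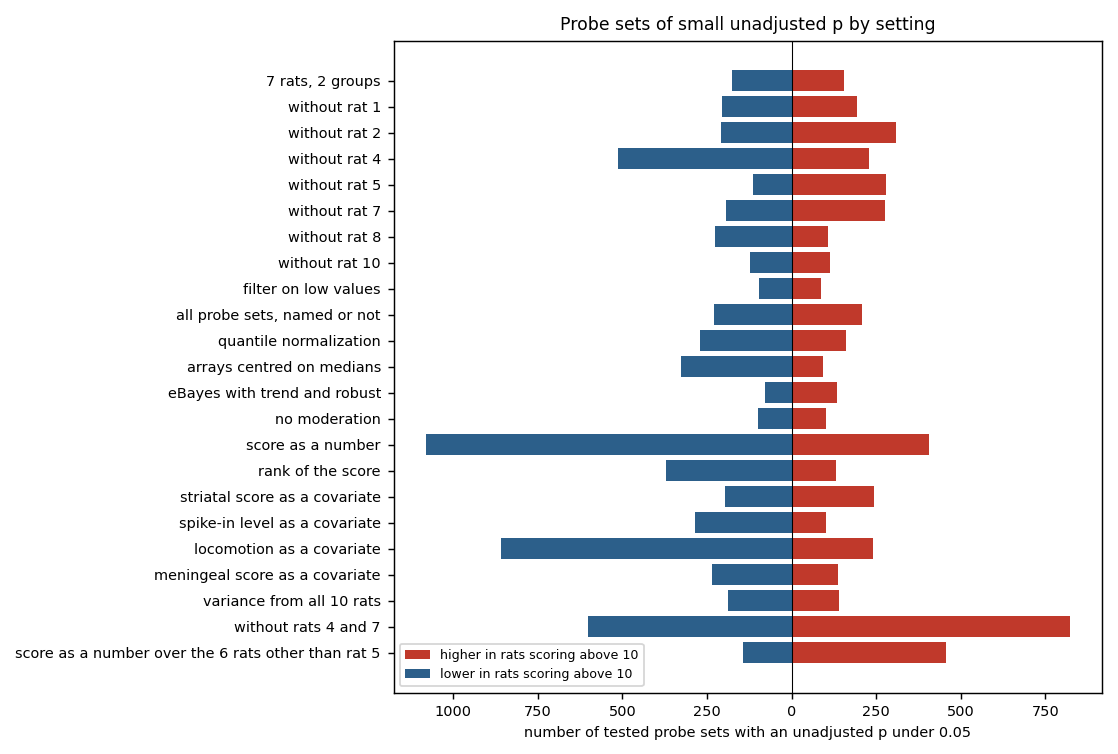
Number of tested probe sets with an unadjusted p under 0.05 (horizontal axis), split into higher (red) and lower (blue) in the rats above 10, under each setting (vertical axis). The counts run from 182 with a filter on low values to 1487 with the score as a number, and no setting gave an adjusted call.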

How the data were processed

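The deposited values are log2 expression summaries, made by the authors with GCRMA in R 2.6.2, per the submitters' processing notes, whose version the sources do not name. Of 31099 probe sets, 57 were controls. The platform annotation named 21262 of the others, 20826 with 1 symbol and 436 with several; 9780 had none. Gene numbers of 20764 matched RefSeq for GRCr8.

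The named probe sets were compared with limma 3.58.1 in R 4.3.3 (lmFit, eBayes, two-sided, Benjamini-Hochberg, threshold 0.05), rats above 10 minus rats below 6. SEs and intervals come from that fit. A run on simulated data checked that the fit returned planted differences on average, and did not test the SEs or intervals. Single measures were compared by exact permutation of the rats.

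Named genes were, among probe sets with 1 symbol at or above the level, the 12 of smallest p in each direction with a stable sign when any rat was left out, the 5 of widest gap, a panel, and the smallest p of each list in each direction. Lists took each gene's brightest probe set. The comparison, genes and lists were chosen with earlier results of these data known. Rats are separate animals. Alternatives comprised leaving out rats, filters, normalizations, covariates, variance models and the score as a number or rank.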

Additional observations from a re-analysis of the deposited data

Results flagged for a closer look

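In the group of 4 rats below 6, 139 measures and genes were checked for 1 rat standing apart, by the gap to its nearest neighbour as a share of the group's range (Dixon's test at the 95% level). The share passed the limit in 11, and chance gives about 1 in 20. Rat 2 was highest for Mgll (0.94), Gria1 (0.929) and the array's upper quartile (0.943), and lowest for Per1 (0.909) and C1qb (0.845). Rat 7 was highest for Gfap (0.91) and lowest for Sst (0.839). Rat 8 was highest for Ring1 (0.837) and lowest for Gsr (0.917) and Klf9 (0.87). Rat 10 was lowest for Fos (0.843). The 3 rats above 10 are too few for this check.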

How the results depend on the processing

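The count of adjusted calls was 0 under all 22 other settings. The 332 probe sets with an unadjusted p under 0.05 became 236 to 742 when 1 rat was left out, 182 with a filter on low values, 213 with trend and robust options, 202 with no moderation, 1487 with the score as a number, 502 with its rank and 1099 with locomotion as a covariate. Added after seeing the data, leaving out rats 4 and 7 gave 1424, and the score as a number over 6 rats gave 601. Centring the arrays turned the split of 155 higher and 177 lower into 92 and 327, and quantile normalization into 161 and 270. The 364 probe sets without overlap (1.71%) became 575 (2.7%) to 2592 (12.2%) when 1 rat was left out. Quantile normalization gave 701 (3.3%), and leaving out rats 4 and 7 gave 10180 (47.9%). The chance share of non-overlap is larger with fewer rats, so a rise on leaving rats out is not read as clearer separation. The 2592 came without rat 4, and 1212 of them were below the level, 1184 with the rats above 10 on top. Of the 10180, 2572 were at or above the level, 21.7% of the probe sets there. The other 7608 were below it, 80.8% of the probe sets there, and rats 1 and 5 were on top in 7568. Array medians below the level were 2.524 in rats 1 and 5, above the 2.47, 2.503 and 2.464 of rats 2, 8 and 10. Over all 10 rats they ran from 2.45 to 2.53. The sign turned in some setting for 58 of 112 named probe sets and for the medians of 28 of 29 measured lists; the 27 leading genes among the 112 were chosen for a stable sign or for groups that do not overlap. No paired analysis was possible because the groups share no rat number.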

Other observations

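The partners of some leading genes were looked up after the values were seen, so these lists support nothing. They take each gene's brightest probe set, which for Ctr9, Ring1 and Cntnap2 is not the probe set named among the leading genes. Of 6 measured PAF1 complex genes, 3 were higher and 3 lower in the rats above 10, and Leo1 was the 1 with an unadjusted p under 0.05. Its partners Cdc73 and Rtf1 differed by -0.07 ± 0.06 and 0.04 ± 0.05. Of 9 cohesin genes, 5 were higher and 4 lower, with Stag1 the 1 under 0.05, while Stag2, the other form of that subunit, differed by -0.14 ± 0.11. Of 18 nucleolar ribosome assembly factors, 10 were higher and 8 lower, and Gnl3 and Utp18 were under 0.05, both lower. Nop56 and Nop58, partners in the same small nucleolar particles, differed by 0.13 ± 0.08 and -0.11 ± 0.11.

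Of 11 genes of Polycomb repressive complex 1, 5 were higher and 6 lower, with 0 under 0.05; Ring1 enters at -0.03 ± 0.09. Of 10 genes of the Caspr2 complex and its potassium channels, 2 were higher and 8 lower, with a median of -0.05 and 0 under 0.05; Cntnap2 enters at -0.10 ± 0.14. Kcna1 and Kcna2, the channel subunits that Caspr2 clusters, differed by 0.11 ± 0.10 and -0.00 ± 0.09.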
